A study of Mus musculus with 17 samples.

Results

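The epidermal differentiation complex is a run of genes on mouse chromosome 3 that are expressed late in keratinocyte differentiation, and its members were examined here for H3K27ac and UTX peaks. The members were chosen by name and place, as protein-coding genes of chromosome 3 of GRCm38 with a symbol that starts with Sprr or Lce, plus Flg, Flg2, Hrnr, Rptn, Tchh, Tchhl1, Crnn, Ivl and Lor. This rule gave 44 of the 21887 protein-coding genes of the annotation and used no measured value. They lie on chromosome 3 from 92080271 (Lor) to 93471980 (Tchhl1), a span of 1.39 Mb. Of the 2948 peaks deposited in 4 lists, 6 were assigned to a member, which means that the peak lay inside the gene or that the gene was the nearest protein-coding gene.

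The study set female Cre+; Utx fl/fl mice (called Utx-deleted), in which Krt14-Cre removes Utx (Kdm6a), against female Cre-; Utx fl/fl mice (called control), which carry the same floxed alleles and no Cre. Crosslinked cell suspensions of epidermis were used for chromatin immunoprecipitation and sequencing with an antibody against H3K27ac, an acetylated histone residue found at active promoters and enhancers, or against UTX, the histone H3K27 demethylase made by Kdm6a. The labels hold 3 H3K27ac and 3 UTX libraries of Utx-deleted mice, against 2 H3K27ac and 3 UTX libraries of control mice, besides 3 inputs of each genotype; the protocol gives 3 per group throughout. Krt14 is a keratin of basal keratinocytes, so cells of other origin in the suspension keep Utx, and ages are not given in the labels.

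Each list was called by the authors on the merged libraries of its group and holds positions only. A list therefore has no replicate error and no peak has a height, so the spread between animals is unknown and genotypes are set side by side without a test. The lists held 48 H3K27ac peaks in Utx-deleted epidermis and 2140 in control epidermis, and 213 UTX peaks in Utx-deleted epidermis and 547 in control epidermis. The depth of the libraries is unknown from the lists. Kdm6a itself had 0 peaks in the 4 lists, so peak positions do not check the deletion. Among keratinocyte markers, control H3K27ac peaks were assigned to 1 of 7 basal genes (Col17a1) and 2 of 6 spinous and granular genes (Dsg1a and Krt10). Of 5 fibroblast and 6 immune markers, 0 had a control H3K27ac peak, of 5 melanocyte markers 0, and of 4 endothelial markers 1 (Pecam1). The share of all protein-coding genes with such a peak was 6.13%. With so few markers, these counts are no result about which cell types were present.

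As keratinocytes move up through the epidermis they replace their plasma membrane with the cornified envelope, a shell of proteins joined by transglutaminases. Involucrin (Ivl) is an early scaffold of that shell, loricrin (Lor) is its main component, and the small proline-rich proteins (Sprr genes) and late cornified envelope proteins (Lce genes) are crosslinked into it. The fused-type S100 genes encode large repeat proteins, among them filaggrin (Flg), which bundles keratin filaments, and trichohyalin (Tchh) of the inner root sheath of the hair follicle. Sprr genes are also known to be induced in stressed or wounded epithelia, and AP-1 factors are known to act on promoters of Sprr, Ivl and Lor genes.

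Peaks stood before 4 of the 44 members, all of the Sprr group, in the control H3K27ac list. The promoter sequences of these genes are shown because near-identical copies bear on how the peaks can be read. Each is a 300-base RefSeq window (GRCm38.p6), from 250 bases before the annotated start to 50 bases after it, 5′ to 3′ on the gene's own strand. Capitals mark matches to any of 4 motifs: AP-1 (TGANTCA), GRHL (AACNNGTT), KLF (CCACNCCC) and a TATA box (TATAAA), searched on both strands. Sprr2a1 (chr3:92215585-92215884, plus strand), Sprr2a3 (chr3:92285054-92285353, plus strand) and Sprr1a (chr3:92485832-92486131, minus strand) had a peak, and Sprr2b (chr3:92316455-92316754, plus strand), the next Sprr2 gene, had none.
Sprr2a1: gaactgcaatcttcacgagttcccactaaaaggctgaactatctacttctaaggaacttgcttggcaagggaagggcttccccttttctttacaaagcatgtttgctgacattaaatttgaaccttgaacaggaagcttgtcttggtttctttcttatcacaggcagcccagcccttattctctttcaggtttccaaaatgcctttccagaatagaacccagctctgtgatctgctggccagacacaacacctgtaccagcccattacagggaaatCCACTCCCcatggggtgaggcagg
Sprr2a3: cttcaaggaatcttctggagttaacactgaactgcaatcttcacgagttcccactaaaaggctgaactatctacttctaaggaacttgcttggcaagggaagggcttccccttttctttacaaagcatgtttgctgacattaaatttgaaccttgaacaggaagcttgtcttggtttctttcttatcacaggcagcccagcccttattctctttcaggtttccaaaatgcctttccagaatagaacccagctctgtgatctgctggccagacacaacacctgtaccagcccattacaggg
Sprr1a: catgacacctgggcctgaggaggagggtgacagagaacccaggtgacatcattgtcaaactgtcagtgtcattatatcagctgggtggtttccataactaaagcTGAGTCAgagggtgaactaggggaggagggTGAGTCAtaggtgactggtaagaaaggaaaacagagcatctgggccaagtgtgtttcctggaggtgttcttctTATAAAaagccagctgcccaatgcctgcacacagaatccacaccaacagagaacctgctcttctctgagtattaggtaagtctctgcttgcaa
Sprr2b: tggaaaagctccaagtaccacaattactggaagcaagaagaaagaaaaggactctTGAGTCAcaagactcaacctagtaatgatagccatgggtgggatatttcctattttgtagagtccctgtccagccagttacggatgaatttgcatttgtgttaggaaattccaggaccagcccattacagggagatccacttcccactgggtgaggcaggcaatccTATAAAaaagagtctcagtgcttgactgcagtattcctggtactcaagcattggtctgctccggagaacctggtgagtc

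The window of Sprr2a2 (chr3:92250397-92250696, plus strand) was identical to that of Sprr2a1 over all 300 bases. The Sprr2a3 window shared an unbroken run of 272 bases with both, beginning at base 29 of the Sprr2a3 window and at base 1 of the others, so that its annotated start stands 28 bases earlier in the copied sequence. The 3 genes start 34812 bp (Sprr2a1 to Sprr2a2) and 34657 bp (Sprr2a2 to Sprr2a3) apart. A pseudogene of 1287 bp follows Sprr2a1 (Gm5850, 11579 bp after its start) and Sprr2a2 (Gm5851, 11569 bp after its start). Reads from such copies cannot be told apart where the sequence is the same. How the authors treated reads with several best positions is not given in the sources used here, and no genome sequence was used to compare the copies at the peaks themselves.

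Of the 44 members, 0 had a peak in the Utx-deleted H3K27ac list, against 4 (9.09%, Wilson 95% interval 3.59 to 21.2) in the control H3K27ac list. The share of all protein-coding genes with a peak was 0.128% in the Utx-deleted list and 6.13% in the control list. At those shares 0.0563 members would have a peak in the Utx-deleted list and 2.70 in the control list. The control count of 4 is thus near the background, and with 48 peaks in the Utx-deleted list a count of 0 is no result about the members. The interval covers counting error only, and neighbouring copies are not independent.

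The UTX antibody gave 0 members with a peak in Utx-deleted and 0 in control epidermis. Over all genes the share was 0.516% for Utx-deleted and 2.44% for control UTX peaks, at which 0.227 members would have a peak in Utx-deleted and 1.07 in control epidermis. With so few peaks, occupancy of these genes by UTX was not detectable in the lists, which differs from being absent. On chromosome 3 the nearest control UTX peak lay 1.49 Mb beyond Tchhl1, inside Rfx5. The nearest Utx-deleted UTX peak and the nearest Utx-deleted H3K27ac peak both lay inside Vps45, 2.57 Mb beyond Tchhl1. Of the 6 control H3K27ac peaks, 0 overlapped a peak of another list and 0 lay within 1 kb of one. Overlap was rare over the whole control H3K27ac list too, with 1 of 2139 peaks (0.0468%) shared with the Utx-deleted H3K27ac, 2 (0.0935%) with the Utx-deleted UTX and 4 (0.187%) with the control UTX list. The count of 0 among 6 is therefore no result about the members.

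**Figure D1:**
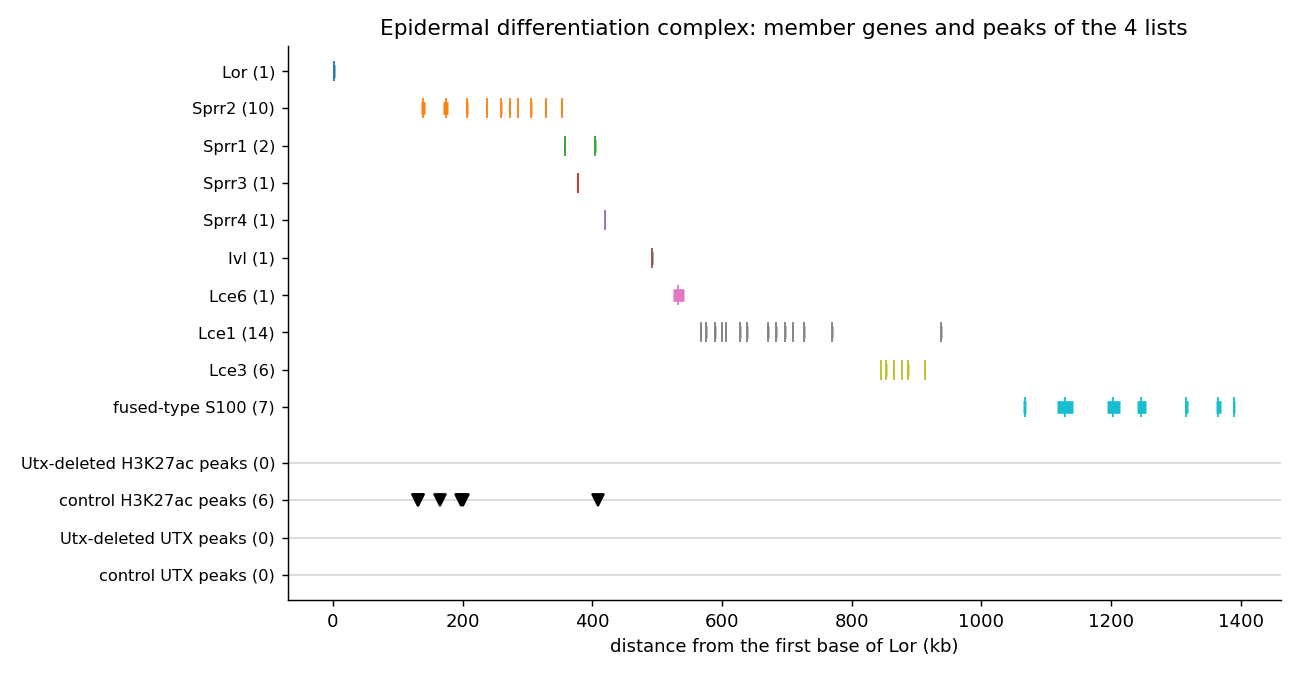
Member genes by family (ticks, with wider bars where a gene is long enough to show, and the number of members in brackets) and the peaks assigned to them in each list (triangles), along the locus in kb from the first base of Lor. The 6 control H3K27ac peaks stand at the Sprr2a copies and at Sprr1a, where pairs 449 bp and 2291 bp apart merge into 1 symbol, and the other lists have 0.

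Sprr2 genes encode short proline-rich envelope precursors. Of the 10 Sprr2 members, 3 (Sprr2a1, Sprr2a2 and Sprr2a3) had a control H3K27ac peak, against 6.13% of all protein-coding genes. Sprr2a1 was assigned peaks of 365 bp (chromosome 3, 92211141 to 92211505) and 203 bp (92211955 to 92212157), whose nearer edges lay 4330 and 3678 bp before its start. Sprr2a2 was assigned a peak of 438 bp (92245758 to 92246195), 4452 bp before its start. Sprr2a3 was assigned a pair of peaks of 236 bp each, from 92278130 to 92278365 and from 92280657 to 92280892, at 6939 and 4412 bp. All 5 peaks lay upstream of the gene in the direction of transcription, outside any annotated gene, and within 69752 bp of each other.

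The 3 copies were laid over each other by their shared promoter sequence. The same shift was carried to the peaks, where no sequence was compared, so insertions or deletions between were not seen. On these shifted positions, 1 peak of each copy overlapped those of the other copies. On Sprr2a1 positions, the 365 bp peak of Sprr2a1 reached from 4694 to 4330 bp before the start, the Sprr2a2 peak from 4889 to 4452 bp and the nearer Sprr2a3 peak from 4675 to 4440 bp. The Sprr2a2 peak shared 243 bp with the Sprr2a1 peak, and the nearer Sprr2a3 peak lay wholly (236 bp) within the Sprr2a1 peak. The narrower Sprr2a1 peak at 3678 bp and the farther Sprr2a3 peak overlapped no peak of either other copy on these positions. As the copies share promoter sequence, the overlapping peaks may hold reads of 1, 2 or all 3 copies, and they do not count as 3 independent observations.

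**Figure D2:**
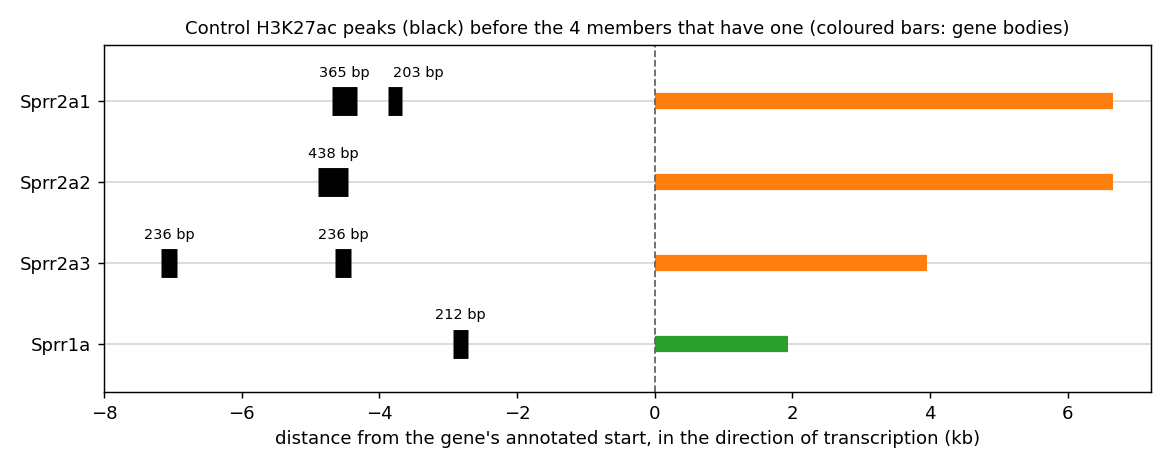
Control H3K27ac peaks (black boxes, with their width) and gene bodies (coloured bars) by distance from each gene's annotated start in kb, in the direction of transcription. A peak lies between 4330 and 4889 bp before all 3 Sprr2a copies, and the Sprr1a peak lies 2714 bp before its gene.

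The other 7 Sprr2 members (Sprr2b, Sprr2d, Sprr2e, Sprr2f, Sprr2h, Sprr2i and Sprr2k) had no peak, and the nearest control H3K27ac peak was 35813 bp from Sprr2b and 101271 bp from Sprr2h. Sprr1a, an envelope precursor known to be induced in injured tissue, was assigned 1 peak of 212 bp (92488595 to 92488806), 2714 bp before its start. Its paralogue Sprr1b, 49778 bp from that peak, had none, nor had Sprr3 and Sprr4, 29875 and 11457 bp from it. Of the 14 genes of the Sprr group, 4 thus had a peak and 10 had none. Over all protein-coding genes the share was 6.13%. As the Sprr2a copies are not independent, the count of 4 is no result about the Sprr group.

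By width, the authors' lists allow a ranking within a list only. The Sprr2a2 peak ranked 331 of the 2139 placed control H3K27ac peaks and the wider Sprr2a1 peak 547. The other 4 ranked between 1455 and 1898, below the list's median width of 273 bp. Over the 6 peaks the median width was 236 bp, and together they covered 1690 bp. None lay inside a gene, whereas 36.9% of the control H3K27ac peaks lay outside protein-coding genes. The distance of the 6 to their genes had a median of 4371 bp, against 6684 bp for the 789 control peaks outside genes.

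No gene end was within 1 kb of any of the 6 peaks. Of the 44 members, 0 had a peak that close to either end in the Utx-deleted or the control H3K27ac list, where the share of all protein-coding genes was 0.0274% (Utx-deleted) and 3.74% (control). The count was also 0 in both UTX lists, where that share was 0.0594% (Utx-deleted) and 0.0868% (control). At shares this low, counts of 0 among 44 genes are no result about the members. Over the whole control H3K27ac list, 36.1% of peaks had a gene end within 1 kb. Within 3 kb the count was 1 of 6, the Sprr1a peak, against 50.1% of the list. The other 5 peaks stand before the Sprr2a copies, and neither difference from the list was tested.

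The span from Lor to Tchhl1 held 0 Utx-deleted and 6 control H3K27ac peaks, or 4.31 per Mb in control epidermis, against 0.791 per Mb over the genome. At the genome density the span would hold 0.0247 Utx-deleted and 1.10 control H3K27ac peaks. The same span held 36.6 protein-coding genes per Mb, against 8.10 over the genome. So the locus held more control peaks than its length gives, and close to as many members with a peak as its number of genes gives. Neither difference was tested. The 5 Sprr2a peaks lie before genes with copied promoter windows, and the sequence at the peaks was not compared. Member genes are short, with a median length of 1696.5 bp against 17169 bp over all protein-coding genes. The part of gene length in where peaks lay was not tested.

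Beyond the Sprr1a peak no control H3K27ac peak followed for 1.03 Mb (92488807 to 93521229). This stretch holds 30 members: Sprr4, Ivl, all 14 Lce1, 6 Lce3 and 1 Lce6 genes, and all 7 fused-type S100 genes. Ivl lay 82093 bp from the nearest control H3K27ac peak. Flg, whose loss causes ichthyosis vulgaris in humans, lay 227541 bp from one, and Tchh 72153 bp. The 6 Lce3 genes lay 436481 to 503411 bp from one, and Lce1m, beside them, 502169 bp. Lor, at the other end of the span, lay 127999 bp from the nearest control peak.

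Stretches as long as this one are common in a list of this size, and fewer hold as many genes. Of the 2119 stretches between neighbouring control peaks, 19.0% were as long as this or longer. It holds 35 protein-coding genes, and 7.13% of the stretches held as many, up to 402. Among the 408 stretches of at least 1 Mb, the median number of genes was 26, and 148 held 35 or more. The lists hold no value for the acetylation of Ivl, the Lce genes or Flg below the authors' calling threshold.

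The 7 other protein-coding genes within the span (Prr9, Lelp1, Smcp, Kprp, 2310050C09Rik, Crct1 and Tdpoz8) had no peak in the 4 lists. Next to the span, Pglyrp3 on the Lor side had none, and S100a11 on the Tchhl1 side, a calcium-binding S100 gene, had a control H3K27ac peak of 643 bp inside it, 49250 bp from Tchhl1. Of 23 other genes of the wider locus, mostly S100a genes, 0 had a Utx-deleted and 6 a control H3K27ac peak. Of 29 cornified envelope genes elsewhere in the genome, 0 had a Utx-deleted and 10 (34.5%, Wilson 95% interval 19.9 to 52.7) a control H3K27ac peak. The difference from the members was not tested, because genes of a cluster are not independent. Over all protein-coding genes the share was 0.128% for Utx-deleted and 6.13% for control H3K27ac peaks. At the Utx-deleted share, counts of 0 are no result about either set of genes.

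**Figure D3:**
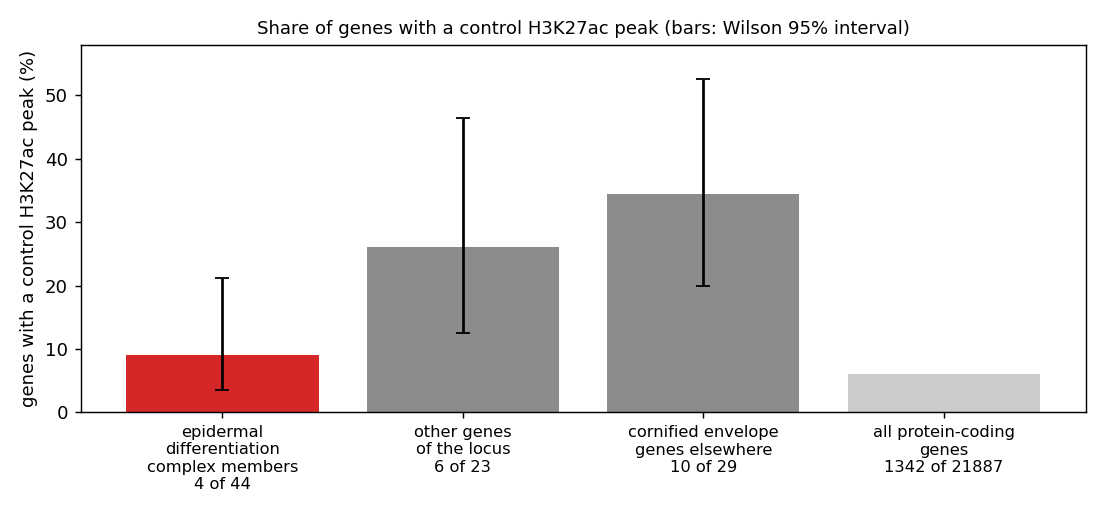
Percentage of genes with a control H3K27ac peak among the members of the epidermal differentiation complex, other genes of the same wider locus, cornified envelope genes elsewhere and all protein-coding genes, with Wilson 95% intervals for the first 3. The members, with 4 of 44, stand close to the 6.13% of all genes. The intervals treat genes as independent, which genes of a cluster are not, and differences between the groups were not tested.

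The choice by name did not use the promoter windows, in which each of the 4 motifs was missing from most members. Windows were at hand for 43 of the 44 members (not for Lce1f), 1 for each. They are set beside 21263 windows of 17492 protein-coding genes, some of which have several windows, so that shares are per gene for the members and per window for the rest. AP-1 matches stood in 16 of the 43 (37.2%), against 6.99% of all windows, at 48 to 198 bases before the start. A TATA box match stood in 20 of the 43 (46.5%), against 12.6%, and in 16 of these it began 27 to 33 bases before the start. KLF matches stood in 3 (6.98% against 19.4%) and a GRHL match in 1 (2.33% against 4.06%). A match of letters is a description of the window, not a site of binding, and related genes with a match at nearly the same place are not independent.

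By family, AP-1 matches stood at Lor and Ivl (2 of 2), at Sprr1a and Sprr1b (2 of 2), at 7 of 10 Sprr2 genes and at 5 of 7 fused-type S100 genes, Flg included. None stood in the windows of Sprr3 and Sprr4, of the 3 Sprr2a copies, or of 13 Lce1, 6 Lce3 and 1 Lce6 genes. Sprr1a holds a pair of AP-1 matches beginning 146 and 116 bases before its start. All 7 Sprr2 genes outside the Sprr2a copies hold an AP-1 match at 182 to 198 bases and a TATA box match at 29 bases. Among the 4 members with a peak, only Sprr1a had an AP-1 or TATA box match.

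The annotated starts of the Sprr2a copies and Sprr2b do not stand at the same place of their shared sequence. The longest run that Sprr2a1 shares with Sprr2b, of 18 bases, begins at base 6 of the annotated Sprr2a1 gene but 80 bases before the Sprr2b start, which places the Sprr2a1 start 85 bases earlier in the sequence they share. By this offset the place of the Sprr2b TATA box match lies beyond the end of the Sprr2a1 window. Carried upstream of the run without gaps, the offset would put the Sprr2b AP-1 match within that window, which holds no AP-1 match. The windows were not aligned beyond the run of 18 bases, so a matching place in Sprr2a1 is not shown. The Sprr2a genes are annotated with lengths of 3961 to 6658 bp, against 1256 to 1734 bp for the other 7 Sprr2 genes. Distances of the Sprr2a peaks to a start hold for these annotated starts.

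**Figure D4:**
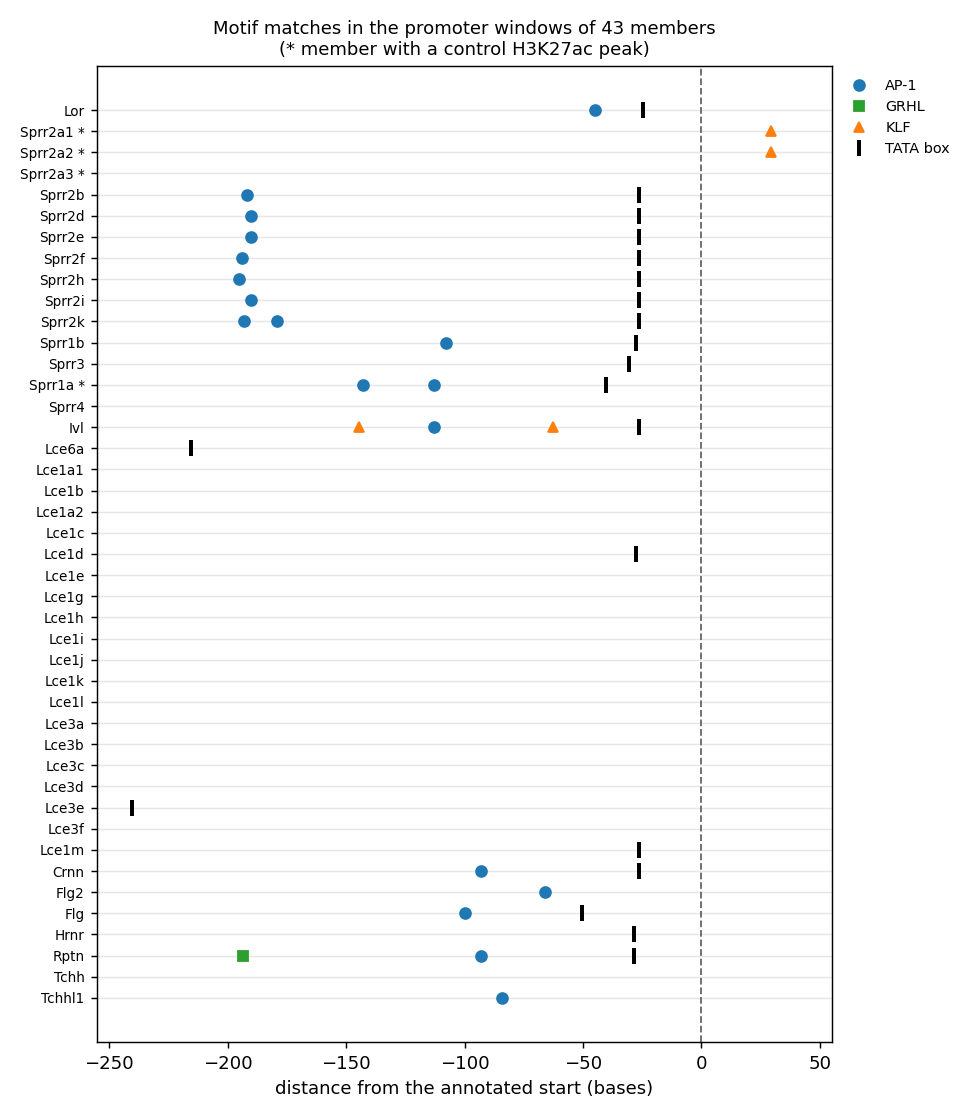
Motif matches (symbols) in the promoter windows of 43 members in order along the chromosome, by distance from the annotated start in bases, with the 4 members that have a control H3K27ac peak starred. Sprr2b to Sprr2k share an AP-1 match at 182 to 198 bases and a TATA box match at 29 bases before the start, and the Lce1 windows hold 2 TATA box matches and no other.

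The windows are poor in CpG dinucleotides. Their median was 1 CpG in 300 bases (range 0 to 5), against 13 over the 21263 protein-coding windows and 20 over the 881 windows of genes with a control H3K27ac peak within 1 kb of an end. Median GC content was 46.0% in the members, 56.3% over all windows and 60.0% in those with such a peak. Of the 43 windows, 5 shared an unbroken run of 50 bases with the window of another gene elsewhere (the 3 Sprr2a copies, and Lce1g with Lce1h), or 11.6% against 10.1% of protein-coding genes with a window. Among members without a peak this was 2 of 39, so most of their windows are distinct by this measure. The part of base composition or copied sequence in where peaks were called was not tested.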

How the data were processed

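Peak positions were taken from 4 lists in BED format, 1 for each antibody and genotype. Per the file headers, MACS2 was run by the authors for narrow peaks after samples of a group had been merged. The submitters' processing notes also list FastQC, Bowtie2, deepTools and bedtools without versions or settings. The lists deposited by the authors hold chromosome, start and end, with no height, fold enrichment or q.

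Groups came from the genotype and the antibody in the labels. The notes name both GRCm38 and GRCm39. Of the control H3K27ac peaks on chromosome 3, 40.0% lay within 1 kb of a gene end of GRCm38, against 16.7% when moved by 10 kb either way, so GRCm38 was used, with 1-based positions. Genes were the 21887 protein-coding genes of the RefSeq annotation GRCm38.p6. A peak counted for each gene it overlapped, or else for the nearest. Peaks on sequence without a chromosome (5 Utx-deleted UTX, 1 control H3K27ac) got no gene. Distances run from a peak's edge. Genome length is the sum over chromosomes of the distance from the first to the last annotated gene, 2703 Mb.

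No test was run, since each list is 1 merged sample and the members neighbour each other. Shares are set beside those of all protein-coding genes. The assignment was checked on planted peaks. Members and lists were chosen with earlier results of these data known. Every member with a peak is named, as are Flg, Ivl, Lor, Tchh, Tchhl1 and genes next to the span; other members were named after their values were seen. Figures were drawn with matplotlib 3.10.9, and values computed in Python 3.11.15 with pandas 2.3.3, scipy 1.17.1 and numpy 2.4.6.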

Additional observations from a re-analysis of the deposited data

How the results depend on the processing

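Of 61 alternative values over 16 results, 57 kept within 1.5 times of the reported count, and 46 of those were counts of 0 that stayed 0. The 11 above 0 were the control H3K27ac counts with peaks limited to 50 or 10 kb of the gene, given to the nearest gene end, or open to all annotated genes (4 members and 6 peaks each time), with peaks within 10 kb merged (4 peaks), and with the span widened by 100 kb (8 peaks). With only peaks wider than the antibody's median, of 274 bp for H3K27ac, 2 members with a peak, 2 peaks assigned to members and 2 peaks in the span were left, at Sprr2a1 and Sprr2a2. This setting drops narrow peaks by construction. Within 3 kb of a gene end the count was 1 instead of 0, by construction of a wider distance. Runs without single libraries, or at a stricter q, could not be made from merged positions. No paired analysis was possible because the peaks of a group come as 1 merged list. The number of peaks in a list limits what can be seen: 48 Utx-deleted H3K27ac peaks leave nearly all genes without one.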

Other observations

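Of 23 other genes of the wider locus on chromosome 3, mostly S100a genes, 3 had a control H3K27ac peak within 1 kb of a gene end. The count was 0 among the 44 members, and the share of all protein-coding genes was 3.74%. With so few genes these counts are no result about either group, and the difference was not tested. The 6 of these 23 genes with a control H3K27ac peak, named after their values were seen, were S100a10, S100a11, S100a14, S100a16, S100a3 and Pglyrp4. S100a10, which encodes the annexin A2 partner p11, was assigned 3 peaks, of 199, 448 and 323 bp, at 6997, 31948 and 33047 bp from the gene. None of these genes had a Utx-deleted H3K27ac peak or a peak of the UTX antibody in either genotype. Over all protein-coding genes the share was 0.128% for Utx-deleted H3K27ac, 0.516% for Utx-deleted UTX and 2.44% for control UTX peaks. At such shares a count of 0 is no result about these genes.

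Among cornified envelope genes elsewhere, the 10 with a control H3K27ac peak, also named after their values were seen, were Abca12, Aloxe3, Calml3, Dmkn, Dsg1a, Krt10, Krt77, Krt78, Krt80 and Spink5. They were assigned 37 peaks in all, and 3 of the genes had a peak within 1 kb of a gene end. Over all protein-coding genes the share was 6.13% for any control H3K27ac peak and 3.74% for one within 1 kb of an end. Differences from these shares were not tested.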
